A study of Rattus norvegicus with 9 samples.

Results

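Rats with a contusion of the thoracic spinal cord that were given alpha-lipoic acid (SCI_ALA, 3 libraries) were compared with rats that had the same injury and were given saline (SCI_Veh, 3 libraries). The compared genes were the 16760 of 36051 in the count table that reached at least 10 counts in at least 3 of the 9 libraries. All animals were wild type by their labels. The injury was an impact at the T9 segment, and total RNA of the cord was sequenced on day 3. The third group, sham (3 libraries), had no contusion by its label and entered the model for the estimate of spread. Strain, age, sex and the dose and route of alpha-lipoic acid are not given in the sources used here. The labels do not say that libraries of a group came from separate animals, so p-values measure the spread between these libraries, which may be technical.

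Alpha-lipoic acid is a sulfur-containing cofactor. It is attached to mitochondrial enzyme complexes such as pyruvate dehydrogenase, and in its reduced form it is a dithiol antioxidant. Given as a drug, it is used for its antioxidant action and is described as an activator of NRF2, the transcription factor of the antioxidant and detoxification response. In the days after a contusion, microglia and blood-derived macrophages clear debris in the cord, astrocytes become reactive, and glial cells deposit chondroitin sulfate proteoglycans that hinder axon growth.

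Libraries held between 13857771 and 15736132 counts. Mitochondrially encoded genes took 7.50 ± 0.949% of counts in SCI_ALA and 7.35 ± 0.805% in SCI_Veh (SD, n = 3 each, two-sided exact permutation p = 1). Genes of cytosolic ribosomal proteins took 7.44 ± 1.29% in SCI_ALA and 5.54 ± 0.399% in SCI_Veh, with no overlap between the groups (exact permutation p = 0.1). That is the smallest p that 3 against 3 libraries allow. The labelled tissue was checked against markers of its main cell types. Mbp, a myelin protein gene, stood at 17432, 16760.4 and 25357 CPM in SCI_ALA and at 19836, 12351 and 14178 CPM in SCI_Veh. Gfap, the astrocyte filament gene, stood at 7777, 8062 and 8314 CPM in SCI_ALA and 7165, 5036 and 6405 CPM in SCI_Veh. CPM is the count divided by the TMM-scaled library size, so it compares libraries and not genes of different length.

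Short genes stood higher and long genes lower in SCI_ALA than in SCI_Veh. Over the decile of shortest genes (up to 799 bases) the median log2 change was 0.25, and 68.5% of these genes had a change above 0. Over the decile of longest genes the median was -0.20. For each library, Spearman's correlation with gene length was taken over 10574 well-expressed genes of their deviation from the 9-library mean. Genes are not independent replicates, so it describes a library. It was 0.0328, -0.285 and -0.460 in SCI_ALA and 0.118, 0.0517 and 0.0553 in SCI_Veh. In sham it was 0.238, -0.188 and 0.342. All SCI_ALA libraries lay below all SCI_Veh libraries, SCI_ALA 3 the farthest. Between the injured groups the exact permutation p was 0.1, and 0.2 after Benjamini-Hochberg adjustment over 4 library measures. The range of sham, -0.188 to 0.342, took in all SCI_Veh values and the SCI_ALA value of 0.0328. The SCI_ALA values of -0.285 and -0.460 lay below every sham library. Length trend and treatment go together in these libraries and cannot be told apart by the design. The comparison was therefore fitted once without and once with an adjustment that removed each library's own trend with length. After it, the medians were 0.03 in the shortest and -0.01 in the longest decile. Across all tested genes, the correlation of the log2 change with length was -0.275 without and -0.0194 with the adjustment.

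**Figure D1:**
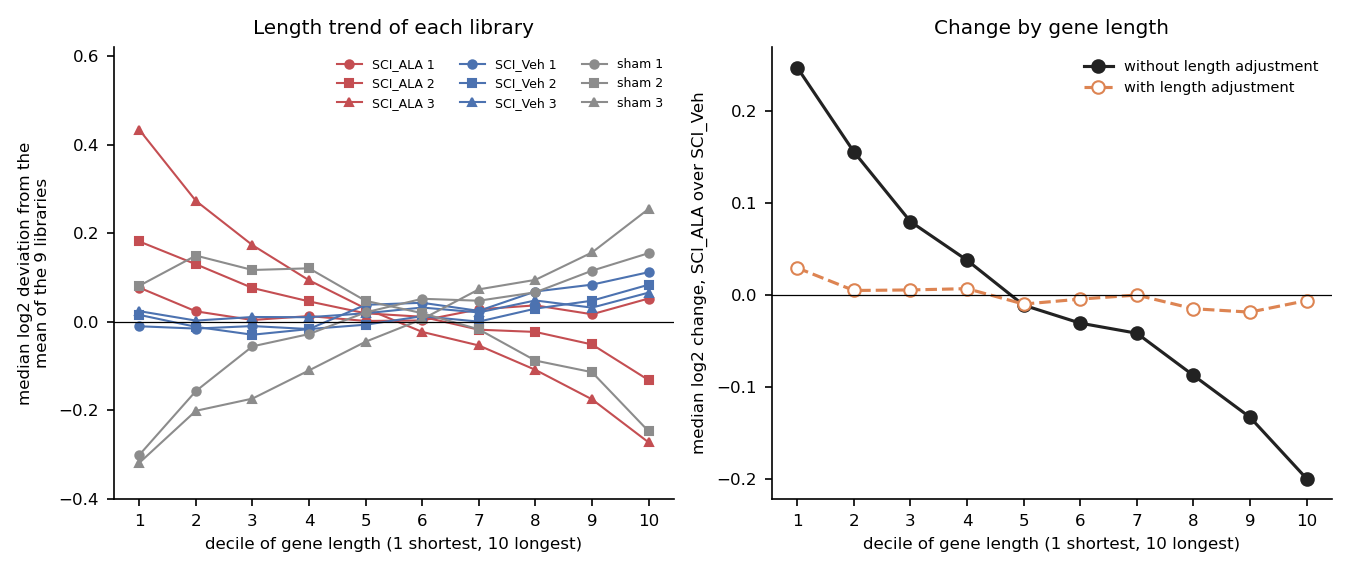
Left, the median log2 deviation of each library from the mean of the 9 libraries in 10 equal groups of genes ordered by length, with 1 line per library. Right, the median log2 change of SCI_ALA over SCI_Veh in the same groups, without the length adjustment (black) and with it (orange). SCI_ALA 3 runs highest among short genes and lowest among long ones, and on the right the medians of 0.25 and -0.20 at the ends lie near 0 after the adjustment.

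Few single genes passed. By the edgeR quasi-likelihood test with a Benjamini-Hochberg adjusted p below 0.05, 20 genes passed without the length adjustment, 0.119% of those tested, 13 higher (0.0776%) and 7 lower (0.0418%). With the adjustment 18 passed (0.107%), 12 higher (0.0716%) and 6 lower (0.0358%). The fits shared 15 genes, all with the same sign. Vcan, Tgfbr1, Pvalb, Slc37a2 and Sult1a1 passed only without the adjustment. Spp1, Lcat and 1 unannotated transcript passed only with it. In all 20 and all 18 the 3 SCI_ALA libraries did not overlap the 3 SCI_Veh libraries, which was so for 23.7% of tested genes without and 22.5% with the adjustment (11.6% higher, 11% lower). Unadjusted, 2055 genes had a p below 0.05 without the adjustment (12.3%; 6.29% higher, 5.97% lower) and 2075 with it (12.4%; 6.99% higher, 5.39% lower).

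These calls sat close to the threshold. Of the 20 genes, all but Rplp2 passed at an adjusted p of 0.0478, and the next gene had 0.0523. Leaving out SCI_ALA 1, 2 or 3 left 2, 0 and 2 calls, leaving out SCI_Veh 1, 2 or 3 left 3, 4 and 1, and leaving out sham 1, 2 or 3 left 11, 88 and 14. With the adjustment, the counts were 9, 6 and 3 without SCI_ALA 1, 2 and 3, 4, 10 and 3 without SCI_Veh 1, 2 and 3, and 36, 54 and 22 without sham 1, 2 and 3. DESeq2, run without the count filter, called 386 of 24140 genes (1.6%), all 20 among them. With length offsets on the filtered genes it called 454 of 16726 (2.71%), 272 higher (1.63%) and 182 lower (1.09%), all 18 among them. Fold and log2 changes given below without a named fit are from the adjusted fit. No gene called in either fit changed sign in the 21 settings in which single genes were followed. Because the groups of these genes did not overlap, a kept sign is only a weak test of them. Medians of gene lists were also sensitive to single libraries. Without each of the 6 injured libraries in turn, the adjusted median changed sign in 12 of 42 lists and in 35 changed sign or moved by over 1.5 times. The other 7 were the phagocytic macrophage (-0.81 to -0.63), homeostatic microglia (-0.86 to -0.48), detoxification (0.52 to 0.68), glucocorticoid (0.94 to 1.26), neuronal cytoskeleton and synapse (0.34 to 0.60), cell cycle (-0.39 to -0.25) and integrated stress response (0.27 to 0.49) lists.

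**Figure D2:**
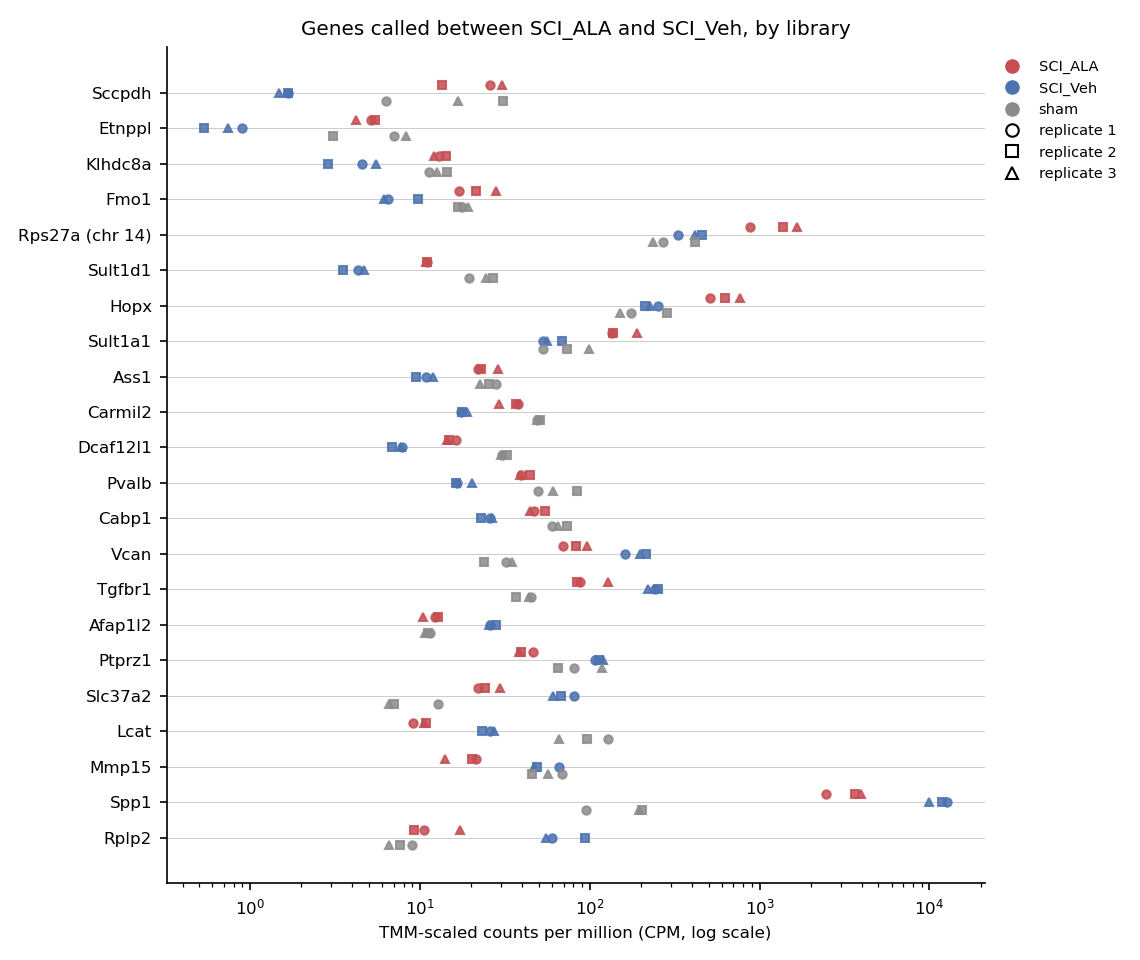
CPM (log scale) of the 22 named genes that passed in either fit, 1 point per library, with SCI_ALA in red above SCI_Veh in blue and sham in grey. For each gene the 3 red and the 3 blue points do not overlap. Gene levels differ in part by gene length and are not to be compared between rows.

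Markers of phagocytic macrophages and of microglia lay on the lower side in SCI_ALA, and 1 of them, Spp1, passed. Spp1 encodes osteopontin, a secreted phosphoprotein made by macrophages at injury sites (ENSRNOG00000043451, chromosome 14, 6673686 to 6679901; positions of genes are on Rnor_6.0, the build in the submitters' processing notes). Its level was 2466, 3625 and 3967 CPM in the SCI_ALA libraries, against 12749.6, 11809 and 9878 CPM in the SCI_Veh libraries and 95.2, 203 and 195 CPM in sham. The highest SCI_ALA library thus stood below the lowest SCI_Veh library, and all 6 stood far above sham. With the length adjustment Spp1 was 3.59-fold lower (log2 -1.84, SE 0.27, edgeR adjusted p = 0.0254). Without it the log2 change was nearly the same, -1.78 (SE 0.30), and missed the threshold (adjusted p = 0.0523). Slc37a2, a sugar-phosphate exchanger of the endoplasmic reticulum that is abundant in macrophages (ENSRNOG00000039390, chromosome 8, 39708638 to 39734594), stood at 21.8, 24.2 and 29.6 CPM in SCI_ALA, against 81, 67.5 and 60.9 CPM in SCI_Veh and 12.8, 7.04 and 6.59 CPM in sham. It was 2.77-fold lower without the adjustment (adjusted p = 0.0478), and had an adjusted p of 0.0628 with it.

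Of 12 tested genes on a list of phagocytic macrophage markers, Spp1 was the only one to pass by edgeR, with the adjustment. In the adjusted fit 11 of the 12 had a log2 change below 0. An unadjusted p below 0.05 was found for 9, all lower, against 5.39% of all tested genes. DESeq2 with length offsets called 5, all lower, against 1.09% of the genes it tested. The list's median log2 change was -0.74 (-0.61 without the adjustment), against -0.0013 over all tested genes. The groups did not overlap in 8 of the 12, all lower, against 11% of all tested genes. Gpnmb, a lysosome-associated glycoprotein of phagocytes, stood at 1239, 1160.5 and 1599.6 CPM in SCI_ALA and 2564, 2914 and 2389.7 CPM in SCI_Veh (adjusted log2 -0.95, adjusted p = 0.078). Itgax, an integrin subunit of activated microglia and dendritic cells, stood at 15.5, 21 and 13.4 CPM in SCI_ALA and 31.6, 36.4 and 35.3 CPM in SCI_Veh (adjusted p = 0.0848). Ctsd, a lysosomal protease, stood at 1663, 1650.2 and 2282 CPM in SCI_ALA and 3617, 3376 and 2799.6 CPM in SCI_Veh (adjusted p = 0.0848). None of these 3 passed. In none of them did the groups overlap, but they were among the smallest p of the list, so this is no separate support. The summed level of the list was 13923 to 18864 CPM in SCI_ALA and 25932 to 33135 CPM in SCI_Veh (exact permutation p = 0.1). Spp1 alone made up a large part of the difference between these sums. In bulk tissue, fewer cells of a type and less RNA per cell cannot be told apart.

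Markers of homeostatic microglia ran the same way: all 9 tested had a log2 change below 0 in both fits, with a median of -0.65 with and -0.55 without the adjustment. None passed by edgeR, and 7 had an unadjusted p below 0.05 in the adjusted fit, all lower, against 5.39% of all tested genes. DESeq2 with length offsets called 4, all lower, against 1.09% of the genes it tested. Cx3cr1, the fractalkine receptor, stood at 28.4, 22.5 and 36.3 CPM in SCI_ALA and 74.8, 43.9 and 50.6 CPM in SCI_Veh. Tmem119, a surface protein of resident microglia, stood at 10.3, 6.18 and 8.31 CPM in SCI_ALA and 18.7, 15.9 and 14.5 CPM in SCI_Veh. The groups lay apart in 6 of the 9 markers, both of these included and all lower, against 11% of all tested genes. Summed, the markers came to 674 to 978 CPM in SCI_ALA and 1092 to 1288 CPM in SCI_Veh. Cd8a and Cd8b, the chains of the CD8 receptor, which rat macrophages carry as well as T cells, had adjusted log2 changes of -1.90 and -1.75 (adjusted p = 0.217 and 0.174). Cd8a stood at 20.4, 28.3 and 39.97 CPM in SCI_ALA and 98.5, 123 and 88.9 CPM in SCI_Veh, without overlap.

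No cytokine or chemokine gene passed. Of 14 tested by edgeR, 1 had an unadjusted p below 0.05, higher, and DESeq2 called none. The median was -0.19, and it ran from -0.87 without SCI_ALA 2 to -0.06 without SCI_ALA 1. Without the adjustment the range, -0.72 to 0.10, included a change of sign. Il1b, Il6 and Ccl2 had adjusted log2 changes of 0.25, 0.17 and -0.40, with SE of 0.92, 0.77 and 0.33. Interferon-stimulated genes (14 tested) and MHC class II genes (8 tested) had medians of 0.02 and 0.13 and no call, no unadjusted p below 0.05 and no DESeq2 call. Without SCI_ALA 3 these medians were -0.45 and -0.30.

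Among chondroitin sulfate proteoglycans of the glial scar, Ptprz1 was lower in SCI_ALA in both fits and Vcan in the fit without the length adjustment. Ptprz1 encodes a receptor phosphatase of glial precursors and astrocytes whose extracellular form, phosphacan, carries chondroitin sulfate (ENSRNOG00000006030, chromosome 4, 49941304 to 50140762). It stood at 46.2, 39.2 and 38.5 CPM in SCI_ALA, against 108, 114 and 120.1 CPM in SCI_Veh and 80.7, 64.9 and 117 CPM in sham. The SCI_ALA libraries were close together and all below the other 6. Ptprz1 was 2.36-fold lower with the adjustment (log2 -1.24, SE 0.14, edgeR adjusted p = 0.00712) and 2.75-fold lower without it (adjusted p = 0.0478). At 7854 bases it is a long gene, and its log2 change was -1.46 before the adjustment. Vcan, which encodes the matrix proteoglycan versican and is longer still at 11553 bases, stood at 69.6, 82.9 and 96 CPM in SCI_ALA, against 160.1, 216 and 197 CPM in SCI_Veh and 31.9, 24 and 34.7 CPM in sham. It passed without the adjustment (log2 -1.21, SE 0.19, adjusted p = 0.0478) and not with it (log2 -0.92, SE 0.21, adjusted p = 0.1001).

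Of the 16 genes on this list, 2 passed by edgeR without the adjustment and 1 with it, all lower. In the adjusted fit the median was -0.54 (-0.69 without SCI_ALA 1 and -0.31 without SCI_Veh 1). Unadjusted, 7 had a p below 0.05 and a lower level and 1 a higher one, against 5.39% and 6.99% of all tested genes. DESeq2 with length offsets called 4, all lower, against 1.09% of the genes it tested. Tnc, tenascin C, a matrix glycoprotein that binds these proteoglycans, stood at 15, 33.9 and 18.9 CPM in SCI_ALA and 43.7, 151 and 96.1 CPM in SCI_Veh (log2 -1.87, SE 0.47, adjusted p = 0.172). Bcan, brevican, stood at 37.3, 29 and 29.7 CPM in SCI_ALA and 83, 38.9 and 62.1 CPM in SCI_Veh (adjusted p = 0.125). In Bcan the groups lay close together at their edges, and sham was far higher at 196, 177 and 213 CPM. Hapln1, a link protein that ties proteoglycans to hyaluronan, had the opposite sign (log2 0.87, SE 0.31). On the overlapping list of oligodendrocyte precursor markers, Ptprz1 was the only one of 9 to pass by edgeR. DESeq2 with length offsets called 3, all lower, against 1.09% of the genes it tested. These were Gpr17 and, shared with the proteoglycan list, Ptprz1 and Bcan. Of the 9, 8 had a change below 0, and the median was -0.52 (-0.89 without SCI_ALA 1). Gpr17, a receptor of precursors about to differentiate, stood at 7.1, 2.85 and 1.72 CPM in SCI_ALA and 12.9, 10.01 and 13.1 CPM in SCI_Veh (adjusted p = 0.178). Pdgfra, the growth factor receptor that defines these cells, had a log2 change of 0.30 (SE 0.25).

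Tgfbr1 encodes the type I receptor of TGF-beta, a cytokine that drives scar and matrix genes (ENSRNOG00000007036, chromosome 5, 63050758 to 63119635). It stood at 87.8, 84.6 and 128 CPM in SCI_ALA, against 241, 252 and 220.2 CPM in SCI_Veh and 45.4, 36.7 and 43.6 CPM in sham. The receptor was 2.38-fold lower without the adjustment (adjusted p = 0.0478). With it the change of -1.05 (log2, SE 0.19) missed the threshold (adjusted p = 0.0628). It was the only one of 17 TGF-beta pathway genes to pass by edgeR in either fit, and DESeq2 with length offsets also called 1, lower. The list's median was -0.17 without and -0.05 with the adjustment (0.05 without SCI_Veh 2). The ligand gene Tgfb1 had an adjusted log2 change of -0.30 (SE 0.16) and the second receptor, Tgfbr2, one of -0.48 (SE 0.22). The matrix list (17 genes, among them collagens) had a median of -0.54 without and -0.30 with the adjustment. The adjusted median was -0.56 without SCI_Veh 1 and -0.02 without SCI_Veh 2. None of its genes passed by edgeR, 4 had an unadjusted p below 0.05 in the adjusted fit (1 higher, 3 lower), and DESeq2 with length offsets called 1, lower. Its genes are long, with a median of 4807 bases.

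Mmp15, a membrane-type matrix metalloprotease (ENSRNOG00000012622, chromosome 19, 10079765 to 10101451), stood at 21.4, 20.1 and 14 CPM in SCI_ALA, against 66.3, 48.8 and 47.1 CPM in SCI_Veh and 69, 45.6 and 56.4 CPM in sham. It was 2.73-fold lower with the adjustment (log2 -1.45, SE 0.18, edgeR adjusted p = 0.0204), and its SCI_Veh libraries lay within the range of sham. It was the only one of 15 metalloproteases and inhibitors to pass by edgeR. DESeq2 with length offsets called 3, Mmp15 and Mmp12 lower and Timp4 higher. Of the genes DESeq2 tested, 1.09% were called lower and 1.63% higher. Mmp12, the macrophage elastase, stood at 17.7, 8.26 and 16.8 CPM in SCI_ALA and 47.5, 39.4 and 44.6 CPM in SCI_Veh, without overlap (adjusted p = 0.106). Timp4, an inhibitor of these enzymes, stood at 28.1, 32.8 and 35.4 CPM in SCI_ALA and 17.6, 13.5 and 15.5 CPM in SCI_Veh (adjusted p = 0.112). Afap1l2, an actin-associated adaptor protein (ENSRNOG00000017164, chromosome 1, 277730760 to 277827269), stood at 12.2, 12.7 and 10.4 CPM in SCI_ALA, against 26, 28.1 and 25.5 CPM in SCI_Veh and 11.5, 11.1 and 10.7 CPM in sham. It was 2.11-fold lower (adjusted p = 0.0287), and its SCI_ALA libraries lay close to sham.

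**Figure D3:**
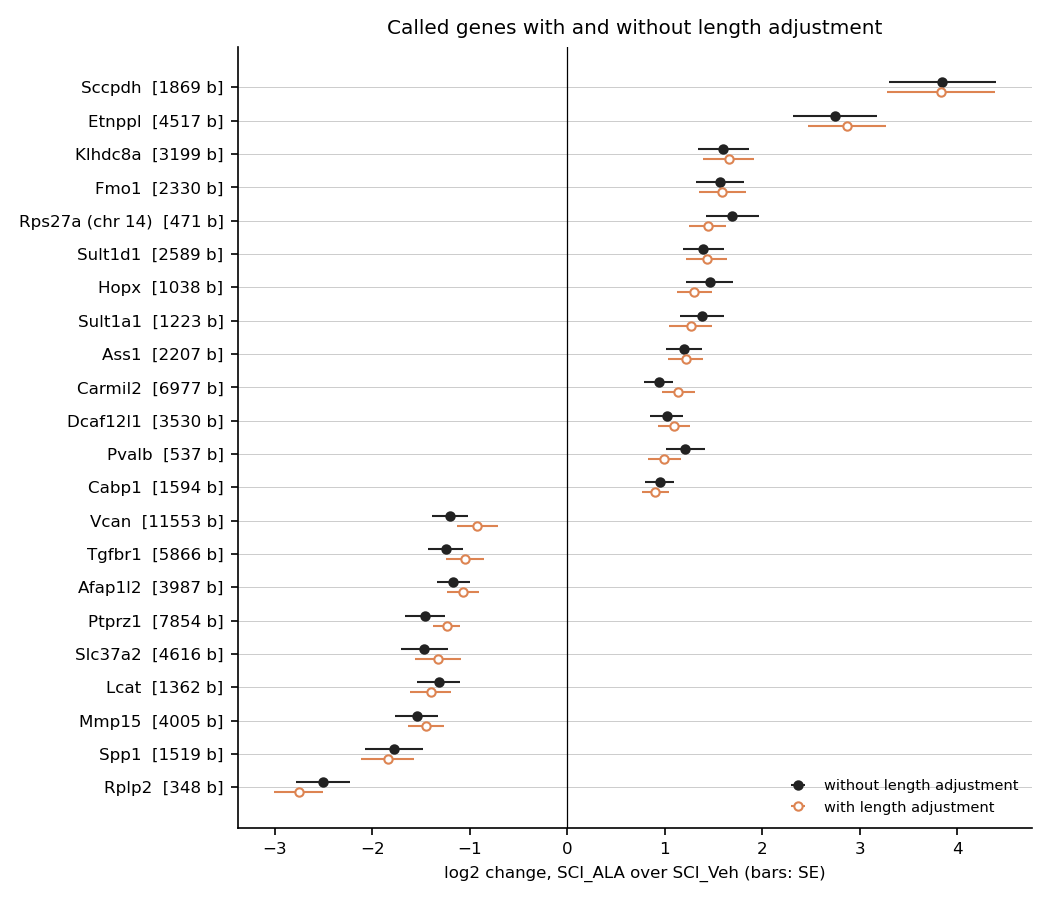
Log2 change of SCI_ALA over SCI_Veh for the 22 named genes that passed in either fit, without (black) and with (orange) the length adjustment, bars ±1 SE. Gene length in bases stands beside each symbol. Short genes such as Rps27a and Pvalb move toward 0 or down with the adjustment, and long genes that were lower, such as Vcan and Tgfbr1, move up toward 0.

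Among enzymes that detoxify foreign and endogenous compounds, Fmo1 and Sult1d1 were higher in SCI_ALA in both fits and Sult1a1 without the length adjustment. Fmo1 encodes a flavin-containing monooxygenase, which oxidises nitrogen and sulfur compounds (ENSRNOG00000034191, chromosome 13, 80712882 to 80745347). Its level was 17, 21.2 and 27.9 CPM in SCI_ALA, against 6.44, 9.74 and 6.15 CPM in SCI_Veh and 17.8, 16.9 and 19.2 CPM in sham. All SCI_ALA libraries lay above all SCI_Veh libraries and reached or passed the sham levels. Fmo1 was 3.01-fold higher with the adjustment (log2 1.59, SE 0.24, edgeR adjusted p = 0.0287). Sult1d1 encodes a cytosolic sulfotransferase (ENSRNOG00000001960, chromosome 14, 22091777 to 22126021). It stood at 11.1, 11 and 10.9 CPM in SCI_ALA, against 4.31, 3.54 and 4.66 CPM in SCI_Veh and 19.4, 26.9 and 24.4 CPM in sham, with very little spread in SCI_ALA. Sult1d1 was 2.69-fold higher (log2 1.43, SE 0.21, adjusted p = 0.0254). Sult1a1, a phenol sulfotransferase (ENSRNOG00000019342, chromosome 1, 198100586 to 198104109), stood at 135, 136 and 190.5 CPM in SCI_ALA and 52.9, 68.2 and 55.9 CPM in SCI_Veh. It was 2.61-fold higher without the adjustment (adjusted p = 0.0478) and missed the threshold with it (0.0628).

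Of 20 detoxification enzymes tested, 3 passed without the adjustment and 2 with it, all higher. The median log2 change was 0.60 with and 0.65 without the adjustment. In the adjusted fit 11 had an unadjusted p below 0.05 and a higher level and 3 a lower one, against 6.99% and 5.39% of all tested genes. DESeq2 with length offsets called 9 higher and 1 lower, against 1.63% and 1.09% of the genes it tested. The groups lay apart in 12 that were higher and 2 that were lower, against 11.6% and 11% of all tested genes. Gsta4, a glutathione transferase that handles lipid peroxidation products, stood at 66.4, 96.7 and 70.4 CPM in SCI_ALA and 33.5, 40.8 and 43.9 CPM in SCI_Veh (adjusted p = 0.0871). Aldh1a1, a retinal dehydrogenase, had an adjusted log2 change of 1.05 (SE 0.23). Fmo2, a further flavin monooxygenase, had a change of 2.57 (SE 0.67). Markers of meninges and fibroblasts, cells that could bring such enzymes, had a median of -0.14 over 8 genes and none passed by edgeR. That median was -0.43 without SCI_Veh 3 and 0.30 without SCI_Veh 2, so its sign rests on single libraries. Their summed level was 2773 to 3236 CPM in SCI_ALA and 1702 to 3178 CPM in SCI_Veh, overlapping. 1 of the 8 had an unadjusted p below 0.05, higher, and DESeq2 called none. The part of such cells in the detoxification genes was not tested.

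No NRF2 target passed. Of 15 tested by edgeR, 1 had an unadjusted p below 0.05 with a higher level and 2 with a lower one, DESeq2 with length offsets called 1, higher, and the median was 0.13. The higher gene was Nqo1, the quinone reductase often used to read NRF2 activity. Its level was 128, 136 and 165 CPM in SCI_ALA, against 87.2, 74 and 75.5 CPM in SCI_Veh and 57.9, 74.5 and 44.8 CPM in sham, without overlap. The adjusted log2 change of Nqo1 was 0.80 (SE 0.15, edgeR adjusted p = 0.065). Hmox1, heme oxygenase 1, stood at 1161, 1507 and 1888 CPM in SCI_ALA and 1911, 1811 and 1620.0 CPM in SCI_Veh, which overlap. Gclc and Gclm, the subunits of the enzyme that starts glutathione synthesis, had changes of 0.10 and 0.16 (SE 0.13 and 0.11). Slc7a11, the cystine importer, had 0.40 (SE 0.25) and Txnrd1, thioredoxin reductase 1, 0.23 (SE 0.12). Of 19 antioxidant enzymes none passed by edgeR, with an unadjusted p below 0.05 for 2 higher and 1 lower and no DESeq2 call. Their median was 0.12 without the adjustment and -0.02 with it, so its sign depends on the adjustment, and it was 0.04 with the adjustment and without SCI_Veh 2. Sod1, Sod2 and Cat had adjusted log2 changes of 0.14, 0.60 and -0.33 (SE 0.12, 0.31 and 0.13).

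The genes that make lipoic acid or carry it were not called either. Of 16 tested none passed by edgeR, 2 had an unadjusted p below 0.05, both higher, DESeq2 called none, and the median was 0.14. Dld, the lipoamide dehydrogenase that reoxidises the cofactor, stood at 129, 145 and 146 CPM in SCI_ALA and 129.8, 122 and 132 CPM in SCI_Veh, which overlap. Its adjusted log2 change was 0.17 (SE 0.16, edgeR adjusted p = 0.728). Lias, the lipoic acid synthase, had a change of 0.12 (SE 0.18), and Lipt1, a lipoyltransferase, one of 0.31 (SE 0.50). Nuclear genes of the respiratory chain (19 tested) had a median of 0.15 and no call by edgeR or DESeq2, with 1 unadjusted p below 0.05, higher.

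Genes that glucocorticoids induce lay on the higher side in SCI_ALA, though none of the 8 tested passed by edgeR. In the adjusted fit 6 had an unadjusted p below 0.05, all higher, against 6.99% of all tested genes. DESeq2 with length offsets called 4, all higher, against 1.63% of the genes it tested. The median was 1.04 (1.03 without the adjustment). Tsc22d3, a glucocorticoid-induced leucine zipper, stood at 170.1, 134 and 274 CPM in SCI_ALA, against 79.8, 117 and 85.6 CPM in SCI_Veh and 149, 194 and 200.1 CPM in sham. Fkbp5, a chaperone partner of the glucocorticoid receptor, stood at 177, 89.9 and 134 CPM in SCI_ALA, against 57.6, 84.3 and 59 CPM in SCI_Veh and 33.4, 17.2 and 32.3 CPM in sham. In both genes the highest SCI_Veh library came close to the lowest SCI_ALA library without reaching it. Their adjusted log2 changes were 1.02 (SE 0.25, adjusted p = 0.125) and 1.05 (SE 0.27, adjusted p = 0.143). Sgk1, another target, had a change of -0.05 (SE 0.31).

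Metallothioneins, small cysteine-rich proteins that bind zinc and copper and are induced by metals, oxidants and glucocorticoids, had the lowest p of that list. Mt2A and the row named Mt1 were among its 4 calls by DESeq2 with length offsets (adjusted p = 0.000318 and 0.00315). Mt2A (ENSRNOG00000043098, chromosome 19, 11307967 to 11308740) stood at 995, 1225 and 1904 CPM in SCI_ALA, against 559.7, 346 and 555 CPM in SCI_Veh and 93.6, 211 and 104 CPM in sham. Every SCI_ALA library lay well above every SCI_Veh library, but the change did not pass (adjusted log2 1.23, SE 0.25, edgeR adjusted p = 0.0878). The row named Mt1 stood at 85, 68.6 and 125 CPM in SCI_ALA and 38.6, 24.7 and 42.4 CPM in SCI_Veh (adjusted p = 0.104). The files place that row on chromosome 17 with a span equal to its length of 389 bases, so reads from near-identical metallothionein copies may be counted in it, and its value is uncertain. The promoter of Mt2A is shown because the metal response element, the short site through which zinc induces these genes, recurs in it. It runs from 250 bases before to 50 after the start (RefSeq, build GRCr8, minus strand, chr19:10838659-10838958), with capitals on matches to TGCACNC or TGCGCNC on either strand.
Mt2A promoter: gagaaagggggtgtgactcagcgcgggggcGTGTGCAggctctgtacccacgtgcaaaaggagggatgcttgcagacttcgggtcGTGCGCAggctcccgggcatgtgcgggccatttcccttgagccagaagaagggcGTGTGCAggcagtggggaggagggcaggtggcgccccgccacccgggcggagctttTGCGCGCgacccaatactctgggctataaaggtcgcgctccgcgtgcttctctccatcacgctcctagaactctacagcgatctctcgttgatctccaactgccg
It holds 4 such matches that do not overlap, the first at -220 and the last at -55 from the start. At least 1 match was found in 24.2% of 33469 promoters of the same length in that table, and 3 or more in 1.68%. A match to the antioxidant response element TGACNNNGC begins at -237, and 12.1% of all promoters hold 1 or more. Among 29 promoters of 21 of the called genes, 11 held a metal response element match and 1, of Cabp1, an antioxidant element match. These are matches of letters, not measured sites.

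Higher calls also came from astrocyte and metabolic genes. Etnppl, a lyase of phosphoethanolamine that marks mature astrocytes (ENSRNOG00000045743, chromosome 2, 235738416 to 235760352), stood at 5.16, 5.41 and 4.19 CPM in SCI_ALA, against 0.901, 0.534 and 0.743 CPM in SCI_Veh and 7.01, 3.09 and 8.32 CPM in sham. Counts were low, yet the SCI_Veh libraries all lay below 1 CPM and the SCI_ALA libraries all above 4. It was 7.29-fold higher (log2 2.87, SE 0.40, edgeR adjusted p = 0.0254). Of 15 markers of homeostatic astrocytes it was the only one to pass, in both fits, and the list's median was 0.18. Reactive astrocyte genes (12 tested) had a median of 0.30, no call by edgeR or by DESeq2 with length offsets, and 2 unadjusted p below 0.05, both higher. Hopx, a small homeodomain protein that binds no DNA itself (ENSRNOG00000024689, chromosome 14, 33354807 to 33362551), stood at 509, 622 and 768 CPM in SCI_ALA, against 250.5, 212 and 228 CPM in SCI_Veh and 174, 284 and 149.6 CPM in sham. All SCI_ALA libraries were above all others, and Hopx was 2.46-fold higher (adjusted p = 0.0254).

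Ass1, argininosuccinate synthase, which rebuilds arginine from citrulline (ENSRNOG00000008837, chromosome 3, 10327414 to 10375826), stood at 22, 22.8 and 28.8 CPM in SCI_ALA, against 10.8, 9.47 and 11.9 CPM in SCI_Veh and 28.1, 25.6 and 22.5 CPM in sham. It was 2.32-fold higher (log2 1.21, SE 0.18, adjusted p = 0.0254), and its SCI_ALA libraries lay in or near the range of sham. Of 12 arginine and polyamine genes it was the only one to pass, and Arg1, the arginase of macrophages, had a change of 0.15 (SE 0.29). Sccpdh, an oxidoreductase annotated as a putative saccharopine dehydrogenase (ENSRNOG00000037984, chromosome 13, 97941757 to 97963824), stood at 25.9, 13.5 and 30.4 CPM in SCI_ALA, against 1.67, 1.67 and 1.49 CPM in SCI_Veh and 6.29, 30.9 and 16.8 CPM in sham. Its change was the largest among the called genes, 14.2-fold higher (log2 3.83, SE 0.55, adjusted p = 0.0438), with a wide spread in SCI_ALA and in sham and almost none in SCI_Veh. Klhdc8a, a kelch repeat protein (ENSRNOG00000000036, chromosome 13, 49074644 to 49082729), stood at 13, 14.2 and 12.2 CPM in SCI_ALA and 4.57, 2.87 and 5.54 CPM in SCI_Veh and was 3.15-fold higher (adjusted p = 0.0368). Lcat, the enzyme that esterifies cholesterol on lipoproteins and in the central nervous system is made by astrocytes (ENSRNOG00000019573, chromosome 19, 37913336 to 37916813), went the other way. It stood at 9.05, 10.8 and 10.6 CPM in SCI_ALA, against 25.7, 23.1 and 27.3 CPM in SCI_Veh and 128, 95.9 and 66 CPM in sham. With the adjustment it was 2.65-fold lower (adjusted p = 0.0254), and without it the adjusted p was 0.0523. Cholesterol synthesis genes had a median of -0.28 over 17 and no call by edgeR or DESeq2. Of them 4 had an unadjusted p below 0.05, all lower, against 5.39% of all tested genes.

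Higher too were 2 calcium-binding proteins of neurons, Cabp1 in both fits and Pvalb without the length adjustment. Pvalb, parvalbumin, a calcium buffer of fast-firing interneurons and sensory neurons (ENSRNOG00000006471, chromosome 7, 119429019 to 119441487), stood at 39.5, 44.3 and 38.9 CPM in SCI_ALA, against 16.5, 16.3 and 20.2 CPM in SCI_Veh and 49.2, 83.7 and 60.9 CPM in sham. It was 2.31-fold higher without the adjustment (adjusted p = 0.0478). At 537 bases it is a short gene, and with the adjustment its log2 change was 1.0 (SE 0.17, adjusted p = 0.055). Cabp1, a neuronal calcium sensor (ENSRNOG00000001173, chromosome 12, 47179664 to 47209784), stood at 46.7, 54.5 and 44.2 CPM in SCI_ALA, against 25.8, 22.9 and 26.7 CPM in SCI_Veh and 59.6, 73.3 and 64.8 CPM in sham. It was 1.87-fold higher (adjusted p = 0.0287). In both genes the SCI_ALA libraries lay between SCI_Veh and sham. The same order was seen for Dcaf12l1, a WD-repeat protein (ENSRNOG00000023458, chromosome X, 131340045 to 131343853), at 16.3, 14.8 and 14.4 CPM in SCI_ALA, 7.79, 6.87 and 7.77 CPM in SCI_Veh and 30.2, 32.5 and 29.8 CPM in sham (2.13-fold higher, adjusted p = 0.0287). It was also seen for Carmil2, a regulator of actin capping (ENSRNOG00000024452, chromosome 19, 37652969 to 37668019), at 37.7, 36.9 and 29.1 CPM in SCI_ALA, 17.4, 17.7 and 19 CPM in SCI_Veh and 49.1, 51.1 and 48.8 CPM in sham. Carmil2 was 2.2-fold higher (adjusted p = 0.0254) and, at 6977 bases, was 1 of the long genes whose change grew with the adjustment.

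Of 15 neuronal cytoskeleton and synapse genes none passed by edgeR. In the adjusted fit 13 had a change above 0. Unadjusted, 8 had a p below 0.05, all higher, against 6.99% of all tested genes. DESeq2 with length offsets called 1, higher, against 1.63% of the genes it tested. The median was 0.44 with and 0.49 without the adjustment. Snap25, a protein of synaptic vesicle release, stood at 505, 569 and 409 CPM in SCI_ALA, against 249, 202 and 379 CPM in SCI_Veh and 850.5, 1419.8 and 1442 CPM in sham (adjusted log2 0.85, SE 0.26, adjusted p = 0.211). Nefh and Nefm, the heavy and medium neurofilaments of large axons, had changes of -0.31 and -0.03 (SE 0.21 and 0.23). Of 9 inhibitory interneuron genes, edgeR called Pvalb without the adjustment and none with it. With the adjustment 3 had an unadjusted p below 0.05, all higher, against 6.99% of all tested genes. DESeq2 with length offsets called 2, Pvalb and Calb2, both higher, against 1.63% of the genes it tested. It did not call Gad1 or Gad2 (adjusted p = 0.327 and 0.290). The list's median was 0.54 with and 0.37 without the adjustment, and with it 0.33 without SCI_Veh 2 and 0.86 without SCI_Veh 3. Motor neuron genes (6 tested) had a median of -0.07 in both fits (0.11 without SCI_Veh 1, with the adjustment), with no call by edgeR or DESeq2 and 1 unadjusted p below 0.05, lower. Myelin genes (13 tested) had a median of -0.30 (-0.53 without SCI_Veh 2 and -0.01 without SCI_Veh 1), no call by edgeR, 3 unadjusted p below 0.05 (1 higher, 2 lower) and 1 call by DESeq2 with length offsets, lower.

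**Figure D4:**
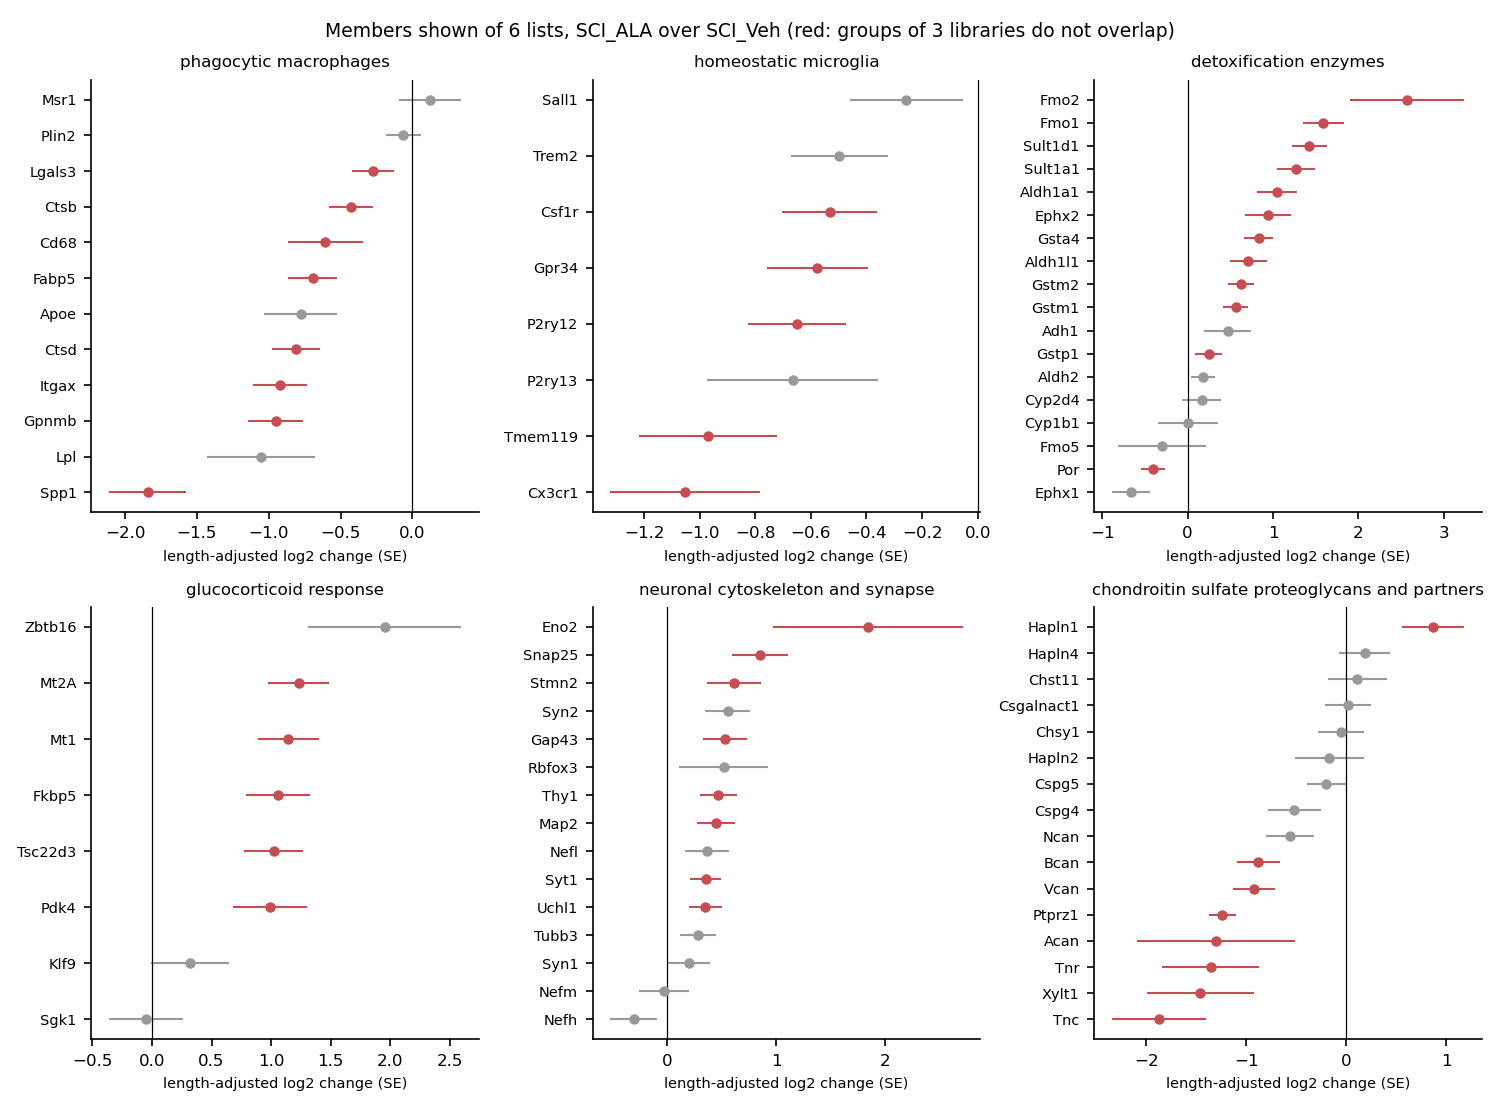
Length-adjusted log2 change of SCI_ALA over SCI_Veh for tested members of 6 gene lists, bars ±1 SE, red where the 3 SCI_ALA libraries do not overlap the 3 SCI_Veh libraries. Spp1 stands at -1.84 among phagocytic macrophage genes, and every microglia marker shown lies below 0.

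Ribosomal protein genes gave 2 calls by edgeR. Rps27a, a fusion of ubiquitin and a small-subunit protein, has 2 tested rows. That on chromosome 14 (ENSRNOG00000004426, 113966611 to 113968268) stood at 878, 1364 and 1656 CPM in SCI_ALA and 332, 456 and 418 CPM in SCI_Veh. It was 2.71-fold higher (log2 1.44, SE 0.19, adjusted p = 0.0234), while the row on chromosome 5 had a change of -1.20 (SE 0.22, adjusted p = 0.0628). The chromosome 14 row took 72.2, 80.2 and 77.4% of both rows' counts in SCI_ALA, 31.8, 38.4 and 34.1% in SCI_Veh and 47.8, 34.7 and 35.5% in sham. Summed, both rows changed by a log2 of 0.29 (SE 0.19), which did not pass (adjusted p = 0.587). The counts thus divided differently between the rows, and which copy was transcribed is uncertain.

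Rplp2, a protein of the large subunit's stalk (ENSRNOG00000037607, chromosome 1, 214428526 to 214430515), stood at 10.5, 9.16 and 17.1 CPM in SCI_ALA, against 59.9, 94 and 55.2 CPM in SCI_Veh and 8.98, 7.67 and 6.59 CPM in sham. It was 6.76-fold lower, the lowest p of the comparison (log2 -2.76, SE 0.25, adjusted p = 0.00188). Ribosomal protein genes are known for near-identical processed copies in the genome. Counts of Rplp2 were also added to those of AC128848.1, a gene on chromosome 19, though the sequence identity of the pair was not checked. AC128848.1 took 98.0, 98.3 and 98.0% of the pair's counts in SCI_ALA, 81.6, 65.9 and 78.4% in SCI_Veh and 80.9, 92.1 and 88.4% in sham. Summed, the pair was higher in SCI_ALA by a log2 of 0.93 (SE 0.19), which did not pass (edgeR adjusted p = 0.0826). The value of Rplp2 alone is thus uncertain. Over 83 tested rows of cytosolic ribosomal proteins the median was 0.48 without and 0.31 with the adjustment, and 75 had a change above 0 in the adjusted fit. The adjusted median was 0.16 without SCI_ALA 3. Of these rows 1 higher and 1 lower passed by edgeR, the 2 above. DESeq2 with length offsets called 4 higher and 2 lower, against 1.63% and 1.09% of the genes it tested. They are short, with a median of 669 bases, and their share of counts was highest in SCI_ALA 3, the library with the steepest length trend.

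**Figure D5:**
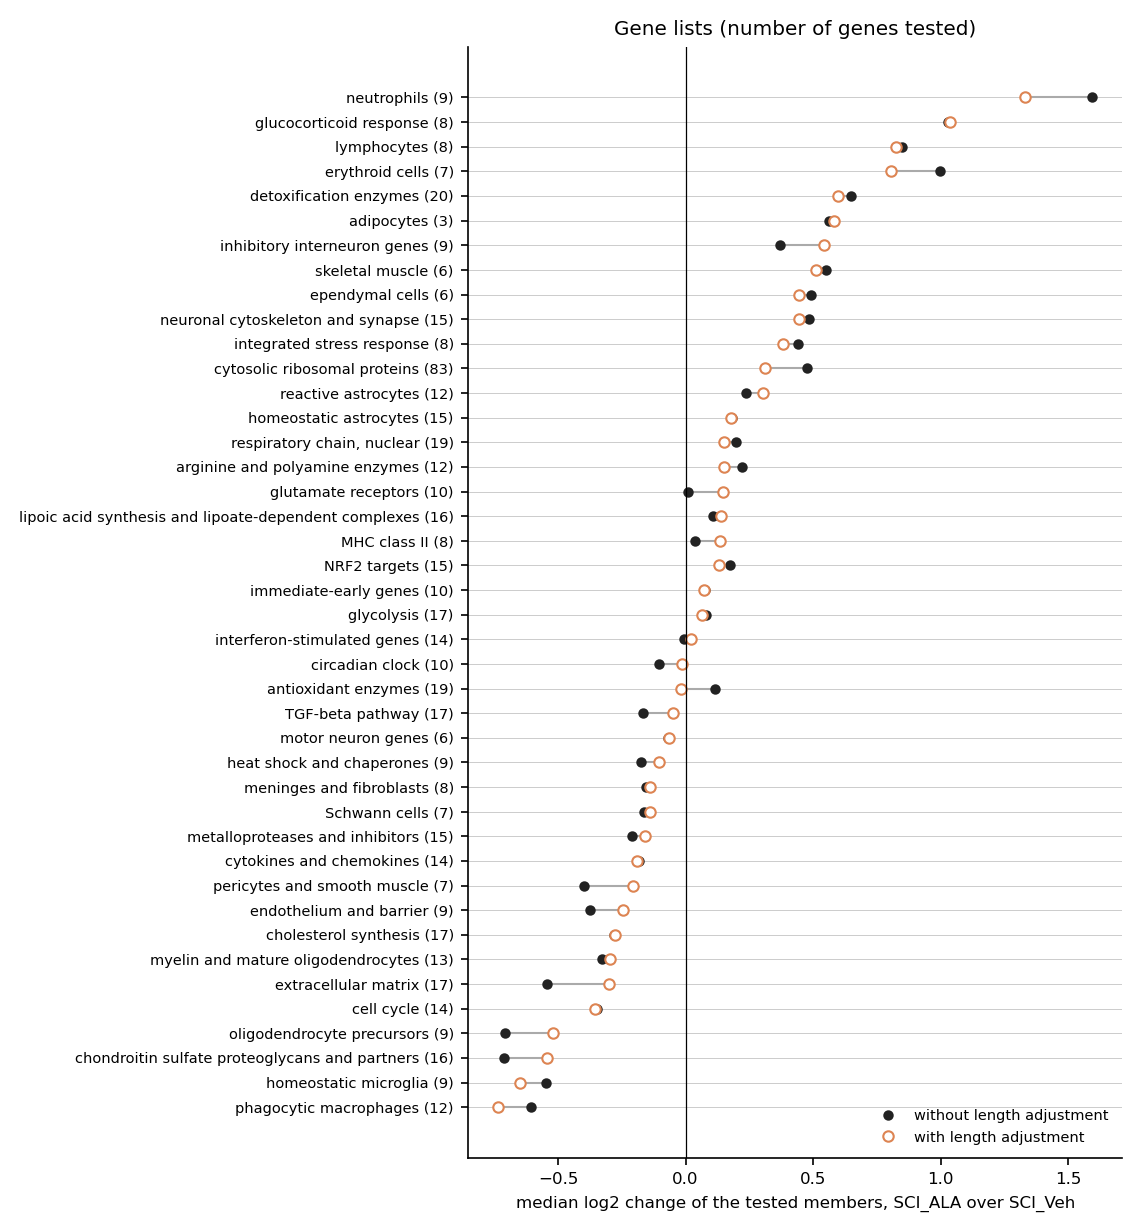
Median log2 change of SCI_ALA over SCI_Veh over the tested members of 42 gene lists, without (black) and with (orange) the length adjustment, ordered by the adjusted value, with the number of genes tested beside each name. Phagocytic macrophages stand lowest at -0.74. The median over all tested genes was close to 0 in both fits.

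No marker of blood cells or of dividing cells passed by edgeR. Neutrophil markers had the highest median, 1.33 with and 1.59 without the adjustment over 9 genes, but none passed by edgeR, none had an unadjusted p below 0.05 and DESeq2 called none. S100a8, a calcium-binding protein of neutrophils, stood at 33.8, 157 and 131 CPM in SCI_ALA and 16, 14.9 and 47.7 CPM in SCI_Veh, with SCI_ALA 1 inside the range of SCI_Veh. Erythroid genes, mostly hemoglobins, had a median of 0.81 over 7 and likewise no call or unadjusted p below 0.05 by edgeR and no call by DESeq2. Hemoglobin genes took 0.172 ± 0.0908% of counts in SCI_ALA and 0.0863 ± 0.0588% in SCI_Veh (exact permutation p = 0.2). Cell cycle genes had adjusted changes below 0 in all 14 tested, between -0.58 and -0.11, with a median of -0.35. The groups did not overlap in 11 of the 14, all lower, against 11% of all tested genes, and the summed level was 738.5 to 935 CPM in SCI_ALA and 1030 to 1099 CPM in SCI_Veh (exact permutation p = 0.1). None passed by edgeR, and DESeq2 called none. Unadjusted, 3 had a p below 0.05, all lower, against 5.39% of all tested genes. Mki67, the proliferation marker, had a change of -0.58 (SE 0.39). Integrated stress response genes had changes above 0 in all 8, with a median of 0.38 and no call by edgeR. Of these 8 genes 3 had an unadjusted p below 0.05, all higher, against 6.99% of all tested genes. DESeq2 with length offsets called 2, both higher, against 1.63% of the genes it tested. Among the remaining lists, glycolysis had a median of 0.06, heat shock genes -0.11, endothelium -0.25, pericytes -0.21, ependymal cells 0.44 (-0.02 without SCI_ALA 1) and Schwann cells -0.14 (0.01 without SCI_ALA 2). Among the genes of these 6 lists edgeR called none, and DESeq2 with length offsets called 1 glycolysis and 1 ependymal gene, higher, and 1 heat shock gene, lower. The part of blood in the other results was not tested.

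A further 4 annotated genes came next to the threshold on the lower side, each at an adjusted p of 0.0628 with the adjustment. NEWGENE_2134, described in the table as apolipoprotein C1, a lipoprotein component made by macrophages (ENSRNOG00000018426, chromosome 1, 80606638 to 80609921), stood at 3.35, 2.15 and 5.29 CPM in SCI_ALA, against 13.7, 42.5 and 24.2 CPM in SCI_Veh and 2.03, 1.34 and 0.3996 CPM in sham. Its adjusted log2 change was -3.14 (SE 0.52), and its SCI_Veh libraries were far apart from one another. Aplnr, the apelin receptor of endothelium, stood at 5.03, 6.32 and 3.71 CPM in SCI_ALA and 14.8, 16.6 and 13.8 CPM in SCI_Veh. Golm1, a Golgi membrane protein, had a change of -1.44 (SE 0.25) and Pmel, a fibril-forming protein of pigment cells related to Gpnmb, one of -1.61 (SE 0.28). In all 4 the groups did not overlap, which on the lower side was so for 11% of all tested genes. The 4 genes were named for their small p, so this lack of overlap adds no support.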

How the data were processed

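Total RNA of rat spinal cord, extracted with Trizol and prepared with an NEBNext Ultra RNA kit per the labels, was sequenced in 9 libraries. The authors deposited raw gene counts, and the submitters' processing notes name HISAT2 2.0.5, featureCounts 1.5.0-p3 and DESeq2 1.20.0 on the build Rnor_6.0. FPKM values of the same genes were also deposited by the authors and were used only in an alternative.

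Counts were fitted with edgeR 4.0.16 (R 4.3.3) in a robust quasi-likelihood model with group means over all 9 libraries and TMM factors, on genes with at least 10 counts in at least 3 libraries. Genes without a name (3168 of 36051 in the table) stayed in. The contrast was SCI_ALA minus SCI_Veh, and adjusted p-values are Benjamini-Hochberg values over all 16760 genes. The length adjustment subtracted each library's loess trend (span 0.5) of log2 deviation on log gene length, as offsets. SE is the log2 change divided by the square root of F. Unless said otherwise, log2 changes of list members are from the adjusted fit. Log2 medians of lists are over the tested members: of 578 listed symbols the table held 566, including 2 found by a second symbol, and the count filter left 546. Members and lists were chosen with earlier results of these data known. Genes named were those called in either fit, the closest below the threshold, up to 4 per list with the smallest p, and a set given whatever its result. A few list members are counted in their lists and not reported here by name. Other values of list members are given to describe a list and were chosen after they were seen. The procedure was tested on simulated counts. These carried the length trend fitted to these libraries, so removal of that trend was built in. Within each group every pair of libraries differed by far more than sampling of reads allows (chi-square statistic over its degrees of freedom between 17.8 and 64.0). Alternatives used DESeq2 1.42.0 and limma 3.58.1, and figures matplotlib 3.10.9. No GC adjustment was made, and the labels name no batch.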

Additional observations from a re-analysis of the deposited data

How the results depend on the processing

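Counts of called genes depended strongly on the setting. Without the length adjustment, against 20 calls, library totals in place of TMM factors gave 1, no count filter 45, the 6 injured libraries alone 162, robust=FALSE 1, a minimum log2 fold change of 0.5 gave 1, DESeq2 386 of 24140 genes, and limma on log2(FPKM + 1) and log2(FPKM + 0.1) gave 3 and 0 of 15514 genes with at least 1 FPKM in 3 libraries. On the 16760 genes of the edgeR fit, added after seeing the data, these gave 408, 4 and 1. Each library's length correlation as a covariate gave 0 calls, with 1927 unadjusted p below 0.05. Leaving out 1 library at a time gave 0 to 88 calls, the lowest without SCI_ALA 2 and the highest without sham 2. Against 18 calls with the adjustment, the 6 injured libraries alone gave 147 and DESeq2 454, and leaving out 1 library gave 3 to 54, namely 9, 6 and 3 without SCI_ALA 1, 2 and 3, 4, 10 and 3 without SCI_Veh 1, 2 and 3, and 36 and 54 without sham 1 and sham 2. RLE factors, at least 50 counts, filterByExpr and leaving out mitochondrial and hemoglobin genes gave 14 to 21 calls, and other forms of the length adjustment 18 to 21. Leaving out sham 2 and SCI_ALA 3 together, chosen after seeing the data, gave 19 in each fit. The cause of these differences was not tested. The replicate block gave 0 calls without the adjustment (2099 unadjusted p below 0.05) and 24 with it, 14 of them shared. The labels do not say whether replicate numbers pair the libraries. Deviations of same-numbered libraries correlated at 0.135, -0.0154 and 0.0410, and those of differently numbered libraries between -0.103 and 0.0653. So few values cannot settle whether libraries were paired.

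The 22 named called genes kept their direction throughout, which tests them little, as their groups did not overlap. In the fit without the adjustment, Rplp2 passed in 7 of the 9 fits that left out 1 library, and the others in 1 to 4. Among all 195 named genes, 42 of 4081 values under alternatives had the opposite sign, in 24 genes, none of them called. The difference between the groups' length correlations, -0.313, ran from -0.448 to -0.201. With 3 libraries a group at these depths, small changes go undetected.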

Other observations

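On the list of lymphocyte markers, T cell genes had changes of both signs. Of its 8 tested genes, 5 had a change above 0 in the adjusted fit. The median was 0.82 with and 0.85 without the adjustment, and with it 0.26 without SCI_ALA 3. Cd8a and Cd8b lay lower in SCI_ALA, at 20.4, 28.3 and 39.97 CPM and 3.82, 3.89 and 7.76 CPM there, against 98.5, 123 and 88.9 CPM and 18.1, 16.7 and 14.5 CPM in SCI_Veh. Lck, a kinase of T cells, stood at 8.51, 7.29 and 7.28 CPM in SCI_ALA and 3.28, 6.54 and 3.71 CPM in SCI_Veh, and Nkg7, a granule protein of killer cells, at 5.23, 9.23 and 7.35 CPM in SCI_ALA and 1.42, 3.74 and 3.65 CPM in SCI_Veh. These 4 genes were named for having the smallest p on the list. In all 4 the groups did not overlap, Cd8a and Cd8b lower and Lck and Nkg7 higher. Over all tested genes this was so for 22.5%. None of the 4 passed by edgeR (adjusted p with the length adjustment 0.217, 0.174, 0.359 and 0.557). By DESeq2 with length offsets 1 of the list's 8 tested genes was called, lower. Cd3e, a chain of the T cell receptor complex, had a log2 change of 0.87 (SE 0.70) and overlapped.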
